A study of Mus musculus with 16 samples.

Results

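Mitochondrial ribosomal proteins were followed in the hearts of control and Cardinal-KO mice after pressure overload. Genes were taken from the deposited count table where the Ensembl identifier maps to a symbol made of Mrpl or Mrps, a number and at most 1 letter from a to c, and where the raw counts summed to at least 160 over the 16 libraries. This gave 78 of the 55487 genes in the table, 49 named for the large subunit (Mrpl) and 29 for the small subunit (Mrps). Their summed counts ran from 13918 for Mrps11 to 171310 for Mrpl42, so all 78 were measured well above the minimum and all 78 passed the expression filter of the test.

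RNA came from the apex of the heart, with 4 animals in each of 4 groups, and was poly(A)-selected before paired 150-base sequencing. Ctrl mice are labelled Control or WT, and KO mice are labelled CARDINAL-KO and lack Cardinal, a cardiac long noncoding RNA annotated in mouse as Gm12295. Transverse aortic constriction (TAC) ties off part of the aorta and raises the pressure load on the left ventricle, whereas in sham surgery the ligature was left out. Genotype and operation together give the groups Ctrl sham and Ctrl TAC, KO sham and KO TAC, and all hearts were taken 4 weeks after surgery on mice that then weighed 25 to 30 g. The animals were male, and their strain, their age and how the Cardinal allele was made are not given in the sources used here. Libraries are treated as separate animals, because each carries its own animal number.

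The mitochondrial ribosome (mitoribosome) translates the few proteins encoded by mitochondrial DNA, all of them subunits of the respiratory chain and ATP synthase. Its rRNAs are mitochondrially encoded, whereas its proteins are made in the cytosol from nuclear genes and imported. Most of these proteins have a counterpart in the bacterial ribosome and others are found only in mitochondria. The heart, which draws nearly all its ATP from respiration, is rich in mitochondria, and inherited defects of several of these proteins, among them Mrpl3, Mrpl44 and Mrps22, cause cardiomyopathy.

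Total counts per library ranged from 53169437 to 79404714, and the 78 genes together took 0.309% to 0.344% of them. Levels are given as CPM, that is, counts scaled to a common library size after TMM normalisation. The deleted gene was checked in every library. Cardinal lay between 2.69 and 8.03 CPM in the 8 Ctrl libraries and between 0.276 and 0.553 CPM in 7 of the 8 KO libraries, but reached 4.55 CPM in the library labelled KO TAC 4, which goes against that label. A different library, Ctrl TAC 2, stood apart from the other 15 on the second principal component of all genes (-62.5, against -3.40 to 13.8). For the 78 genes as a whole, counts of calls and medians of the comparisons that involve these libraries are given with and without them. Calls by subunit, by origin and for other lists include both libraries. The cardiomyocyte markers Myh6, Tnnt2, Tnni3, Actc1, Ryr2, Pln, Mb, Actn2 and Ttn summed to between 45810 and 66650 CPM in every library, as the tissue label says, while the 5 adipocyte markers summed to at most 3.14 CPM.

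To compare genes with one another, CPM was divided by the length of each gene's merged exons. In Ctrl sham hearts the highest level per kb was that of Mrps21, a small-subunit protein with a bacterial counterpart, at 83.1 ± 5.57 CPM per kb (SD, n = 4). Mrps23, a mitochondrion-specific small-subunit protein, followed at 71.1 ± 3.06 CPM per kb. Mrpl12, which forms the flexible stalk that recruits translation factors, lay at 69.0 ± 4.10 CPM per kb, within the SD of Mrps23. Mrpl34 (60.9 ± 5.55) and Mrpl18 (60.4 ± 2.81 CPM per kb) came next and did not differ beyond their spread. Mrps28 was the third small-subunit gene, at 35.8 ± 1.83 CPM per kb. At the other end lay Mrps10 at 2.28 ± 0.139 and Mrps22 at 3.55 ± 0.165 CPM per kb, with Mrpl17 (3.93 ± 0.0924) and Mrpl32 (3.94 ± 0.379) just above them. The order was much the same in KO TAC hearts, where Mrps10 was again last, but Mrps23 moved to first place at 88.7 ± 3.43 CPM per kb and Mrps21 fell behind Mrpl12 at 69.1 ± 5.97. Merged exons include long untranslated ends that may not be used in the heart, so a low level per kb can reflect the annotation.

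Promoters were read from RefSeq (build GRCm38.p6), which held an entry for 69 of the 78 genes, covering 250 bases before and 50 after the annotated start. The letters searched, on both strands, are those of motifs named for NRF-1 (CGCATGCG), ETS factors such as GABP (CCGGAAGT), YY1 (AAGATGGC), ERR (TCAAGGTCA) and E-box binders (CACGTG), factors known for their part in nuclear control of mitochondrial genes or growth. The NRF-1 letters were found in 7 of 69 promoters (10.1%, against 1.91% of 27025 promoters of all genes and 3.62% of the 11341 protein-coding genes that were tested for expression). The ETS letters were found in 11 (15.9%, against 4.0% and 7.65%), and the YY1 letters in 12 (17.4%, against 2.88% and 4.32%). At least 1 of these 3 motifs occurred in 28 promoters (40.6%), against 8.36% and 14.7%. The E-box letters were found in 5 (7.25%, against 7.24% and 9.93%), and the ERR letters occurred in none (0.407% of all promoters). A match is a run of letters and was not tested as a binding site. The 100 bases before the start are shown for 2 genes that fell and 2 that rose in KO hearts after TAC, each with the motif in capitals.

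Mrpl22, chr11:58171564-58171663, plus strand, NRF-1 motif in capitals: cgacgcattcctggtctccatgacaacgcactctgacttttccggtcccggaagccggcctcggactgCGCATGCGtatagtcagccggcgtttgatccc
Mrps22, chr9:98601680-98601779, minus strand, ETS motif in capitals: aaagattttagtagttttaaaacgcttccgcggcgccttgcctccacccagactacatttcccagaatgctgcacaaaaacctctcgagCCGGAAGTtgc
Mrpl43, chr19:45006443-45006542, minus strand, ETS motif in capitals: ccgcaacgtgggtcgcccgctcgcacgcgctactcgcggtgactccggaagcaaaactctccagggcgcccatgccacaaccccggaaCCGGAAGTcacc
Mrpl20, chr4:155802778-155802877, plus strand, E-box motif in capitals: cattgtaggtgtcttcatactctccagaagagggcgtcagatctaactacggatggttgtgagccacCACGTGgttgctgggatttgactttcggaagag

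The NRF-1 letters of Mrpl22 begin 32 bases before the start, the ETS letters of Mrps22 11 and of Mrpl43 12 bases before it, and the E-box letters of Mrpl20 33 bases before it. The ETS letters lay at nearly the same distance from the annotated start in Mrps22, which fell, and in Mrpl43, which rose. This pair was picked for display, and the call of Mrps22 was lost on leaving out 1 library in 7 of 16 cases. Any part of the letters in the direction of change was not tested. Among the 32 genes with a promoter entry that fell in KO TAC hearts, 11 (34.4%) held an NRF-1, ETS or YY1 motif, as did 16 of the 33 (48.5%) that were not called and 1 of the 4 that rose.

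The first comparison asked how the genes responded to pressure overload in hearts that have Cardinal. In Ctrl TAC against Ctrl sham, 11 of the 78 genes fell and 5 rose by edgeR's quasi-likelihood test with a Benjamini-Hochberg adjusted p under 0.05. Over all 18275 genes tested, 9.6% were called lower and 10.4% higher. The median log2 fold change of the 78 genes was -0.022, against 0.0043 for all genes, and single genes ran from -0.45 to 0.28. The genes that fell were Mrpl14, Mrpl23, Mrpl28, Mrpl39, Mrpl48 and Mrpl50 of the large subunit and Mrps5, Mrps9, Mrps28, Mrps31 and Mrps35 of the small subunit. The genes that rose were Mrpl43, Mrpl53, Mrpl57, Mrps23 and Mrps34. The median rests on single libraries, at 0.0020 without Ctrl TAC 2, -0.0004 without Ctrl sham 1, -0.0092 without Ctrl sham 4 and -0.0436 without Ctrl sham 2. Without Ctrl TAC 2, 11 genes fell and 7 rose, all 16 calls among them, and 38 of the 78 genes lay below 0 in place of 46. Ctrl TAC 2, 3 and 4 and KO TAC 4 have animal numbers that start with 25, unlike the other 12 animals, and the meaning of these numbers is not given in the sources used here. With that series as a term in the model the median was 0.0016, and of the 11 falls only Mrpl39, Mrpl48 and Mrps35 kept their call. No Ctrl sham library is in that series, so series and surgery can hardly be told apart in Ctrl hearts. In whole tissue, fewer cells of a type and less RNA per cell cannot be told apart.

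Mrpl39, a mitochondrion-specific protein of the large subunit (chromosome 16, 84717576 to 84735742 in GRCm38), had the largest fall. Its level was 59.6, 61.1, 55.0 and 62.2 CPM in Ctrl sham 1 to 4 and 42.0, 44.1, 43.1 and 44.5 CPM in Ctrl TAC 1 to 4. The lowest sham library was above the highest TAC library, and the log2 fold change was -0.45 ± 0.04 (SE; adjusted p = 1.34e-06, edgeR). Mrpl14, whose protein has a bacterial counterpart and lies where the subunits meet, was at 47.9, 42.1, 43.4 and 50.6 CPM in Ctrl sham hearts and at 38.8, 38.5, 36.02 and 31.3 CPM in Ctrl TAC hearts. These groups did not overlap either (log2 fold change -0.35 ± 0.07, adjusted p = 0.00185, edgeR). With the 25 series as a term the value of Mrpl14 was -0.28 and missed the threshold (adjusted p = 0.0513, edgeR). Mrpl14 shares 106 exon bases with Tmem63b on the opposite strand. Mrps35, a mitochondrion-specific small-subunit protein, went from 59.3, 52.3, 53.2 and 52.7 CPM to 42.8, 42.9, 46.5 and 43.7 CPM, again without overlap (-0.31 ± 0.05, adjusted p = 0.000278, edgeR). Mrpl23, with a bacterial counterpart near the exit of the nascent chain, went from 38.5, 36.4, 33.5 and 40.9 CPM to 32.1, 30.9, 32.4 and 30.4 CPM. Here too every TAC library was below every sham library (-0.25 ± 0.06, adjusted p = 0.00583, edgeR), but with the 25 series as a term the call was lost (-0.22, adjusted p = 0.074). The other 7 fell by less, with log2 fold changes from -0.17 (Mrps28) to -0.22 (Mrps5).

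The 5 genes that rose were all mitochondrion-specific. Mrps34, which binds the small-subunit rRNA, was at 55.8, 52.2, 49.5 and 57.1 CPM in Ctrl sham hearts and at 67.0, 65.6, 66.2 and 61.6 CPM in Ctrl TAC hearts. The groups did not overlap (log2 fold change 0.28 ± 0.05, adjusted p = 0.0013, edgeR). Its exons share 1309 bases with Mapk8ip3 on the opposite strand and 763 with Nme3 on its own strand, and whether counting used the strand is not given in the sources used here. Mrps23 shares no exon bases with another gene and rose from 112, 106, 108 and 117 CPM to 143, 136, 129 and 127 CPM (0.27 ± 0.05, adjusted p = 0.00161, edgeR). All 4 TAC libraries of Mrps23 were above all 4 sham libraries. Mrpl43 was at 33.2, 32.5, 33.4 and 33.99 CPM in sham and at 38.4, 38.5, 41.8 and 41.9 CPM in TAC hearts (0.27 ± 0.05, adjusted p = 0.00087, edgeR), with no overlap. Mrpl43 shares 507 exon bases with Twnk, the mitochondrial DNA helicase, on the opposite strand. Twnk itself moved the other way, with a log2 fold change of -0.25 ± 0.07 (adjusted p = 0.0163, edgeR). Mrpl57 went from 19.2, 20.3, 18.1 and 21.0 CPM to 25.8, 23.8, 22.2 and 23.0 CPM, without overlap (0.27 ± 0.06, adjusted p = 0.00486, edgeR). Mrpl53 rose least, by 0.19 ± 0.06 (adjusted p = 0.0381, edgeR). Its highest sham library, at 38.3 CPM, was above its lowest TAC library, at 37.7 CPM, and it shares 695 of its exon bases with Gm42688 on the same strand. The call of Mrpl53 was lost on leaving out 1 library in 5 of 16 cases.

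**Figure D1:**
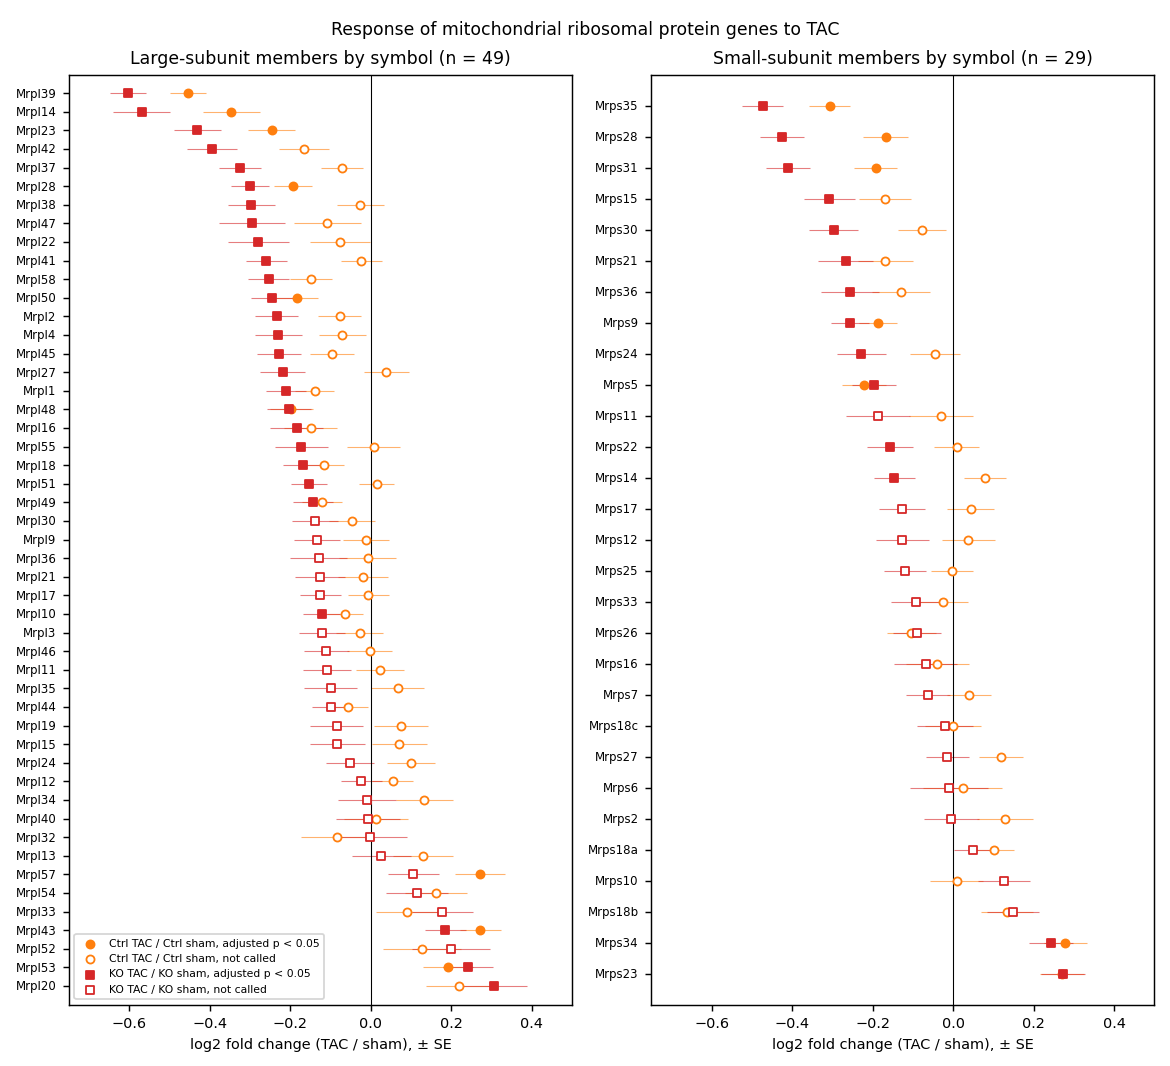
Log2 fold change of each of the 78 genes after TAC in Ctrl hearts (circles) and in KO hearts (squares), with the SE as a line, for the 49 large-subunit genes (left) and the 29 small-subunit genes (right). Filled symbols passed an adjusted p under 0.05. More squares than circles are filled, 41 against 16, most of them to the left of 0.

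The same comparison in hearts without Cardinal gave more calls. In KO TAC against KO sham, 36 of the 78 genes fell and 5 rose (edgeR's quasi-likelihood test, adjusted p under 0.05), while 16.5% of all genes were called lower and 17.8% higher. The median log2 fold change was -0.13, against -0.0039 for all genes, and 65 of the 78 genes lay below 0, against 50.5% of all genes. All 11 genes that fell in Ctrl hearts were among the 36, which is 30.6% of them. Of the 5 that rose, 4 were those that rose in Ctrl hearts (Mrpl43, Mrpl53, Mrps23 and Mrps34), Mrpl20 was added, and Mrpl57 was not called at 0.11 ± 0.06 (adjusted p = 0.214, edgeR). In 37 of the 41 called genes the 4 TAC libraries did not overlap the 4 sham libraries. The same libraries gave the calls, so this is no separate support, and the share over all genes was not computed. Without the library labelled KO TAC 4, 38 genes were called, 36 of them among the 41, with a median of -0.14. KO sham 1, 2 and 3 and Ctrl sham 4 have animal numbers that start with 33, and with that series as a term 26 of the 41 calls were left (21 lower and 5 higher), with a median of -0.098. No KO TAC library is in the 33 series, so series and surgery can hardly be told apart in KO hearts.

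Mrpl39 was at 59.5, 57.3, 56.6 and 57.7 CPM in KO sham 1 to 4 and at 38.3, 38.6, 37.0 and 38.2 CPM in KO TAC 1 to 4. This was the largest fall among the 78 genes, to 34.2% below the sham level (log2 fold change -0.60 ± 0.04, adjusted p = 2.29e-08, edgeR). Mrpl14 went from 46.0, 45.8, 46.5 and 49.2 CPM to 31.3, 34.4, 29.7 and 31.0 CPM (-0.57 ± 0.07, adjusted p = 6.79e-06, edgeR). Neither gene had overlapping groups. Mrps35 was at 52.0, 54.5, 54.0 and 55.0 CPM in KO sham and at 40.0, 37.5, 37.1 and 40.6 CPM in KO TAC hearts (-0.47 ± 0.05, adjusted p = 1.24e-06, edgeR). Mrpl23 changed by -0.43 ± 0.06, Mrps28 by -0.43 ± 0.06 and Mrps31 by -0.41 ± 0.05, with adjusted p of 1.74e-05, 1.03e-05 and 1.15e-05 (edgeR). Mrpl42, the gene with the most counts, went from 183, 184, 200 and 182 CPM to 143, 151, 134 and 142 CPM (-0.39 ± 0.06, adjusted p = 8.09e-05, edgeR). In Ctrl hearts Mrpl42 had not passed the test, at -0.17 ± 0.06 (adjusted p = 0.0697, edgeR). Mrps15 (-0.31 ± 0.06) and Mrps30 (-0.30 ± 0.06) followed among the small-subunit symbols.

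Of the genes that rose, Mrpl20, whose protein has a bacterial counterpart and binds rRNA early in assembly of the large subunit, went from 20.2, 17.5, 19.5 and 16.2 CPM in KO sham to 23.3, 24.1, 20.6 and 22.6 CPM in KO TAC hearts. The highest sham library was just below the lowest TAC library (log2 fold change 0.31 ± 0.08, adjusted p = 0.00833, edgeR). In Ctrl hearts Mrpl20 had a value of 0.22 ± 0.08 and did not pass the test (adjusted p = 0.0746, edgeR). Mrps23 was at 120, 115, 118 and 105 CPM in KO sham and at 142, 142, 131 and 139 CPM in KO TAC hearts (0.27 ± 0.05, adjusted p = 0.000709, edgeR), without overlap. Mrps34 (0.24 ± 0.05), Mrpl53 (0.24 ± 0.06) and Mrpl43 (0.19 ± 0.05) completed the group, with adjusted p of 0.00191, 0.0058 and 0.00817 (edgeR). Mrpl52 (0.20 ± 0.10), Mrpl33 (0.18 ± 0.08) and Mrps18b (0.15 ± 0.06) were also above 0, but none passed the test.

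**Figure D2:**
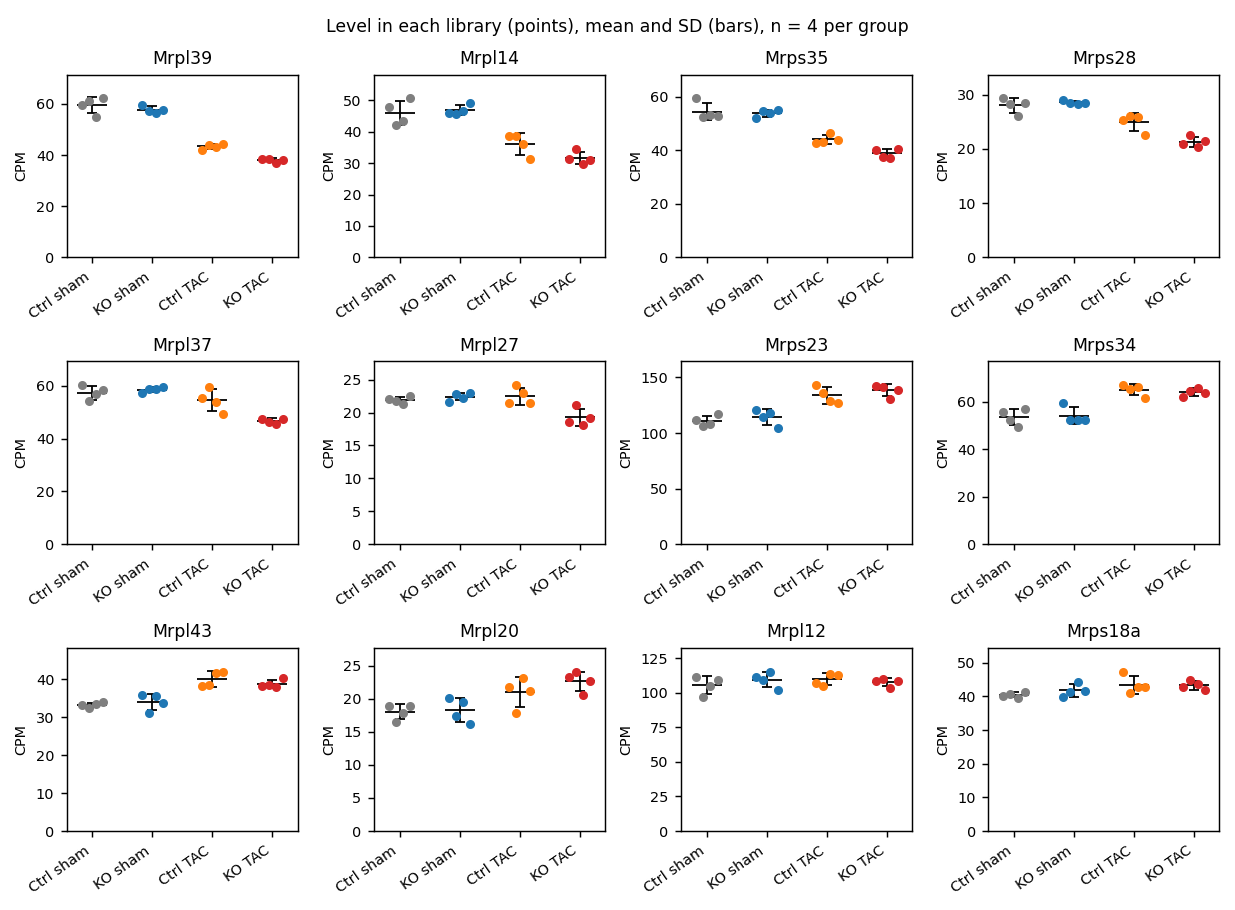
CPM of 12 genes in each library by group (points, 4 per group), with the mean and SD as bars and each axis starting at 0. Mrpl39, Mrpl14 and Mrps35 were lower in both TAC groups than in both sham groups, Mrps23, Mrps34 and Mrpl43 were higher, and in Mrpl12 and Mrps18a the TAC libraries overlapped the sham libraries of the same genotype.

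Whether the deletion changed the genes without load was examined in sham hearts. None of the 78 genes was called in KO sham against Ctrl sham by edgeR's quasi-likelihood test, nor by DESeq2, and 0.0% of all genes were called by edgeR. At an unadjusted p under 0.05 there was 1 of 78, against 2.62% of all genes, and it was Mrps22. Mrps22 was at 14.7, 13.4, 13.9 and 14.7 CPM in Ctrl sham and at 16.7, 16.4, 16.2 and 16.3 CPM in KO sham hearts. These groups did not overlap, but the log2 fold change of 0.21 ± 0.06 had an adjusted p of 1 (edgeR; 0.0016 before adjustment). Over all genes the median was -0.0018, and 50.9% lay below 0. The median over the 78 genes was 0.036, and 11 of them lay below 0. Leaving out 1 library moved these values, to 0.022 and 24 genes without Ctrl sham 3, to 0.023 and 19 genes without Ctrl sham 2, and to 0.058 and 9 genes without Ctrl sham 1. The largest negative values were those of Mrps26 (-0.05 ± 0.06), Mrps5 (-0.04 ± 0.05) and Mrpl39 (-0.04 ± 0.04), and the largest positive ones after Mrps22 were those of Mrps6 (0.15 ± 0.10), Mrps17 (0.11 ± 0.06) and Mrpl22 (0.11 ± 0.07).

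Under load, 4 of the 78 genes were lower in KO TAC than in Ctrl TAC hearts and 0 were higher by edgeR's quasi-likelihood test, where 1.32% of all genes were called lower and 1.36% higher. They were Mrpl27, Mrpl37, Mrpl39 and Mrps28. At an unadjusted p under 0.05 there were 18 of 78, all lower, against 18.5% of all genes in either direction. DESeq2 called 11, all lower, where it called 6.47% of all genes against 2.68% by edgeR in either direction, adding Mrpl2, Mrpl38, Mrpl41, Mrpl42, Mrps14, Mrps31 and Mrps35. The median over the 78 genes was -0.065, and 62 lay below 0, against -0.0017 and 50.5% over all genes.

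Mrpl37, a mitochondrion-specific large-subunit protein, was at 55.2, 59.5, 53.9 and 49.5 CPM in Ctrl TAC and at 47.5, 46.3, 45.5 and 47.4 CPM in KO TAC hearts. The groups did not overlap (log2 fold change -0.22 ± 0.05, adjusted p = 0.0306, edgeR). Mrps28, a small-subunit protein, was at 25.3, 26.2, 25.9 and 22.6 CPM and at 20.9, 22.5, 20.3 and 21.4 CPM (-0.23 ± 0.06, adjusted p = 0.0351, edgeR). Its lowest Ctrl library was barely above its highest KO library. Mrpl27, whose bacterial counterpart reaches towards the site where peptide bonds form, was at 21.5, 24.2, 22.9 and 21.5 CPM and at 18.6, 21.1, 18.2 and 19.2 CPM (-0.22 ± 0.06, adjusted p = 0.04, edgeR). The Ctrl TAC and KO TAC levels of Mrpl39, given above, did not overlap (-0.19 ± 0.04, adjusted p = 0.0324, edgeR). Mrpl32 (0.13 ± 0.09), Mrps10 (0.12 ± 0.06) and Mrpl52 (0.12 ± 0.10) had the largest positive values, and none of them passed the test.

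These 4 calls rest on single libraries. Leaving out Ctrl TAC 2, Ctrl TAC 3, KO TAC 1 or KO TAC 3 left 0 calls, leaving out KO TAC 2 or KO TAC 4 left 1, and leaving out KO sham 2 left 2. The median of -0.065 became -0.042 without KO TAC 3, -0.048 without Ctrl TAC 1, -0.050 without Ctrl TAC 3 and -0.083 without KO TAC 2. Without both Ctrl TAC 2 and KO TAC 4 there were 0 calls, and the median was -0.090. The log2 fold changes without these 2 libraries were -0.19 for Mrpl37 and Mrpl39 and -0.21 for Mrps28. With the 25 series as a term there were likewise 0 calls, with Mrpl37 at -0.22 and Mrps28 at -0.23. Ctrl TAC 1 is the only Ctrl TAC library outside that series, and KO TAC 4 is the only KO TAC library in it. Series and genotype can therefore hardly be told apart under load.

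The difference between the responses to TAC was tested directly as the genotype by surgery interaction. None of the 78 genes passed by edgeR's quasi-likelihood test or by DESeq2, and 0.0109% of all genes did so by edgeR. At an unadjusted p under 0.05 there were 16 of 78, all with the lower value in KO hearts, against 11.1% of all genes in either direction. The interaction was below 0 in 68 of the 78 genes, with a median of -0.12, against 50.1% and -0.0009 over all genes. A shift to lower values was not particular to these genes, since all 36 nuclear-encoded subunits of respiratory complex I lay below 0 (median -0.19). Without both Ctrl TAC 2 and KO TAC 4, 70 of the 78 genes lay below 0 and their median was -0.13, with 0 calls by edgeR. The largest values were those of Mrpl38 (-0.27 ± 0.08), Mrps28 (-0.26 ± 0.08), Mrpl27 (-0.26 ± 0.08), Mrpl37 (-0.25 ± 0.07) and Mrpl41 (-0.24 ± 0.07), with adjusted p from 0.238 to 0.253 (edgeR). On the positive side Mrps10 led at 0.12 ± 0.09. Hence a gene called in KO hearts and not in Ctrl hearts, such as Mrpl42 or Mrpl20, is not shown to respond differently. The responses in the 2 genotypes share no library, and across the 78 genes their Pearson correlation was 0.884, a description over genes that are not independent replicates. The SD of the log2 fold changes was 0.18 in KO and 0.14 in Ctrl hearts.

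**Figure D3:**
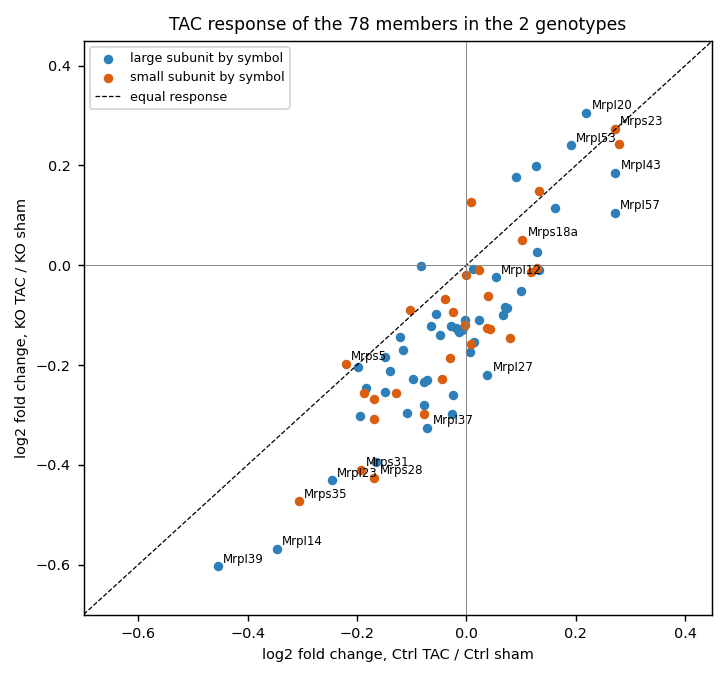
Log2 fold change after TAC in KO hearts (vertical axis) against that in Ctrl hearts (horizontal axis) for the 78 genes, coloured by subunit, with a dashed line where both would be equal. Genes that were low in one genotype were mostly low in the other, and 68 of the 78 points lie below the line, with Mrpl39 and Mrpl14 at the lower left.

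The large and the small subunit were then set side by side. In Ctrl hearts 6 of 49 large-subunit genes fell and 3 rose, and 5 of 29 small-subunit genes fell and 2 rose. In KO hearts the counts were 24 lower and 3 higher of 49, and 12 lower and 2 higher of 29. Over all genes tested, 9.6% were called lower and 10.4% higher in Ctrl hearts, and 16.5% and 17.8% in KO hearts. The median log2 fold change in KO hearts was -0.13 for either subunit (-0.134 and -0.126), and in Ctrl hearts it was -0.024 for the large and -0.0025 for the small subunit. Symbols are not fully the subunits of the assembled particle. Mrps18a and Mrps30 lie in the large subunit in structures of the mammalian mitoribosome, and Mrps36 is a component of the 2-oxoglutarate dehydrogenase complex. With these moved or left out, the counts in KO hearts were 25 lower and 3 higher of 51, and 10 lower and 2 higher of 26.

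Summed over its 49 genes, the large subunit reached 2240 ± 102 CPM in Ctrl sham, 2292 ± 48.4 in KO sham, 2170 ± 69.8 in Ctrl TAC and 2050 ± 80.5 in KO TAC hearts (SD, n = 4). The 4 KO TAC libraries lay between 1938 and 2127 CPM, below the lowest Ctrl sham library at 2148 and the lowest KO sham library at 2242. Ctrl TAC libraries, from 2093 to 2233 CPM, overlapped Ctrl sham and KO TAC libraries. The overlap with KO TAC libraries came from 1 library on each side, Ctrl TAC 2 at 2093 and KO TAC 2 at 2127 CPM. The other 3 Ctrl TAC libraries started at 2130 CPM, just above KO TAC 2, and the next KO TAC library was KO TAC 1 at 2081 CPM. The small-subunit sum was 1060 ± 44.6, 1090 ± 30.2, 1058 ± 37.6 and 1022 ± 37.0 CPM in the same order, and KO TAC (974 to 1063 CPM) and KO sham libraries (1056 to 1115 CPM) overlapped narrowly. The ratio of the large to the small sum was 2.104 to 2.126 in Ctrl sham and 2.02 to 2.08 in Ctrl TAC hearts, without overlap, and 2.06 to 2.12 in KO sham and 1.99 to 2.02 in KO TAC hearts, also without overlap. Each gene weighs in this ratio by its count, so Mrpl42, which fell, and Mrps23, which rose, weigh most on either side. When each gene was first divided by its exon length, Ctrl TAC hearts (1.95 to 2.05) overlapped Ctrl sham hearts (2.03 to 2.07), whereas KO TAC hearts (1.92 to 1.98) lay below KO sham hearts (1.99 to 2.05) as before.

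**Figure D4:**
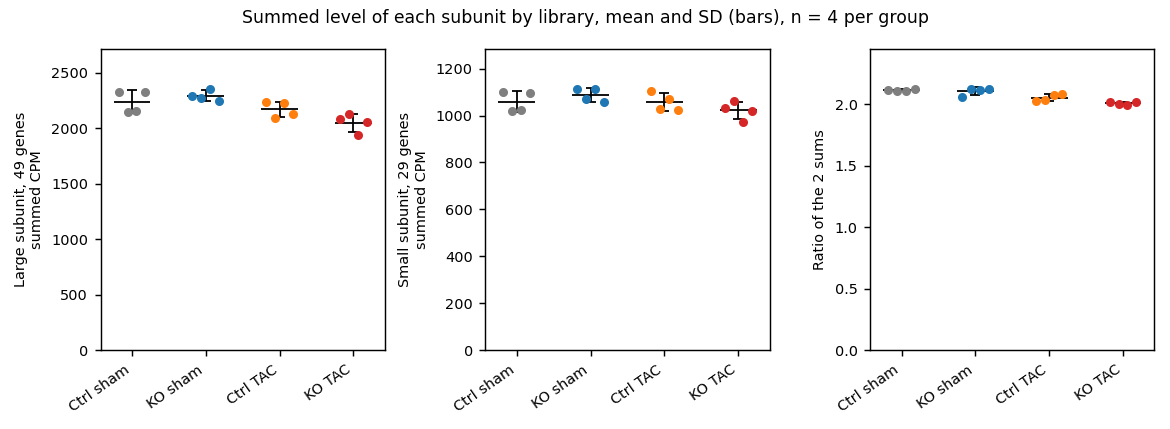
Summed CPM of the 49 large-subunit genes (left), of the 29 small-subunit genes (middle) and the ratio of these sums (right) in each library by group, with mean and SD as bars and axes from 0. KO TAC libraries have large-subunit sums from 1938 to 2127 CPM, below all sham libraries but overlapping Ctrl TAC libraries, and the ratio lies between 1.99 and 2.08 in TAC libraries and between 2.06 and 2.13 in sham libraries.

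By origin, 48 of the 78 proteins have a bacterial counterpart and 30 are specific to mitochondria. In Ctrl hearts 6 of the former fell and 0 rose, whereas of the mitochondrion-specific genes 5 fell and 5 rose. In KO hearts the counts were 20 lower and 1 higher (Mrpl20) of 48, and 16 lower and 4 higher of 30. Over all genes 16.5% were called lower and 17.8% higher in KO hearts. The medians differed little, at -0.011 and -0.026 in Ctrl hearts and at -0.13 and -0.15 in KO hearts. For the mitochondrion-specific genes in Ctrl hearts the called shares were 16.7% in either direction, beside 9.6% lower and 10.4% higher over all genes, and 3 of their 5 rises (Mrps34, Mrpl43 and Mrpl53) are of genes that share exon bases with another gene. The difference between the origins was not tested.

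Several genes of known role changed little or did not pass the test. Mrpl12, the stalk protein, was at 111, 97.1, 105 and 109 CPM in Ctrl sham, 112, 109, 115 and 102 in KO sham, 107, 105, 114 and 113 in Ctrl TAC and 108, 110, 104 and 109 CPM in KO TAC hearts. These ranges overlapped, and the log2 fold changes after TAC were 0.05 ± 0.05 in Ctrl and -0.02 ± 0.05 in KO hearts (adjusted p = 0.516 and 0.761, edgeR). Mrps18a lay between 39.6 and 41.4 CPM in Ctrl sham, 39.9 and 44.3 in KO sham, 40.9 and 47.2 in Ctrl TAC and 41.8 and 44.8 CPM in KO TAC hearts, with log2 fold changes of 0.10 ± 0.05 and 0.05 ± 0.05. Mrps18a was not called, except as higher in Ctrl hearts with the 25 series as a term. Its paralogs Mrps18b (0.13 and 0.15) and Mrps18c (0.00 and -0.02) were not called either. Mrpl10 and Mrpl11 form the base of the stalk. Mrpl10 fell in KO hearts by a small amount (-0.12 ± 0.05, adjusted p = 0.0435, edgeR), a call that was lost on leaving out 1 library in 11 of 16 cases, and Mrpl11 did not pass (-0.11 ± 0.06).

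Among the genes linked to inherited cardiomyopathy, Mrps22 fell in KO hearts after TAC, with 16.2 to 16.7 CPM in sham libraries and 13.9 to 15.1 CPM in TAC libraries (-0.16 ± 0.06, adjusted p = 0.0384, edgeR). The call was lost on leaving out 1 library in 7 of 16 cases and with the 25 or the 33 series as a term (adjusted p = 0.0524 and 0.25, edgeR). KO sham was also the group in which Mrps22 was highest, and KO TAC libraries overlapped Ctrl sham libraries at 13.4 to 14.7 CPM. Mrpl3 (-0.12 ± 0.06) and Mrpl44 (-0.10 ± 0.05) did not pass the test in KO hearts (adjusted p = 0.114 and 0.125, edgeR). Mrpl58, a hydrolase that frees stalled chains from the ribosome, fell in KO hearts by 0.25 on the log2 scale (adjusted p = 0.000884, edgeR) and missed the threshold in Ctrl hearts at -0.15 ± 0.05 (adjusted p = 0.0502, edgeR). Mrps36, not a ribosomal protein in structures, was at -0.26 ± 0.07 in KO hearts (adjusted p = 0.00998, edgeR; 0.0966 with the 33 series as a term).

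The genes around the mitoribosome were taken as lists. Over all genes tested, 9.6% were called lower and 10.4% higher in Ctrl hearts, and 16.5% and 17.8% in KO hearts. Of 5 mitoribosomal proteins with other symbols, Dap3 and Ptcd3 fell in both genotypes and 0 rose. Dap3, a GTP-binding small-subunit protein, changed by -0.17 ± 0.05 in Ctrl and -0.37 ± 0.05 in KO hearts (adjusted p = 0.0277 and 2.23e-05, edgeR). Of 27 genes for assembly and rRNA modification, 5 fell and 1 rose in Ctrl hearts and 12 fell and 1 rose in KO hearts, with medians of -0.10 and -0.22. Mettl15, which methylates the small-subunit rRNA, fell most in Ctrl hearts (-0.66 ± 0.08, adjusted p = 8.88e-06, edgeR), and Mtg2, an assembly GTPase, fell in both (-0.31 ± 0.07 and -0.47 ± 0.07). Of 15 translation factors tested, 3 fell in Ctrl and 7 in KO hearts. Lrpprc, which stabilises mitochondrial mRNAs, led them at -0.25 ± 0.05 and -0.47 ± 0.05 and was also lower in KO TAC than in Ctrl TAC hearts (-0.22 ± 0.05, adjusted p = 0.0338, edgeR). The elongation factor Tufm fell in KO hearts (-0.24 ± 0.05, adjusted p = 0.000597, edgeR) and had a value of -0.06 ± 0.05 in Ctrl hearts.

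Of 20 mitochondrial aminoacyl-tRNA synthetases and partners, 5 fell in Ctrl and 16 in KO hearts, with 0 higher by edgeR, and the medians were -0.15 and -0.27. Gatb, a subunit of the amidotransferase that makes glutaminyl-tRNA, led them at -0.24 ± 0.06 and -0.46 ± 0.06. Of 12 genes for mitochondrial DNA maintenance and transcription, 3 and 8 fell, with Top1mt, the mitochondrial topoisomerase, at -0.51 ± 0.10 and -0.75 ± 0.10. Mgme1 and Twnk, needed for replication of mitochondrial DNA, fell in both genotypes. Polrmt, the mitochondrial RNA polymerase, fell in KO hearts (-0.17 ± 0.05, adjusted p = 0.0198, edgeR), while Tfam, which packages mitochondrial DNA, was at 0.10 ± 0.05 and -0.07 ± 0.05 and did not pass. Of 12 transcriptional regulators, 2 fell and 1 rose in Ctrl hearts (16.7% and 8.3%, beside 9.6% and 10.4% over all genes). In KO hearts 5 fell and 2 rose (41.7% and 16.7%, beside 16.5% and 17.8% over all genes). Their medians were -0.13 and -0.18, and the median in KO TAC against Ctrl TAC was 0.0041. Gabpa, the DNA-binding subunit of GABP, fell in both (-0.25 ± 0.04 and -0.21 ± 0.04), and Esrra (-0.34 ± 0.05) and Ppargc1a (-0.62 ± 0.22, adjusted p = 0.0464, edgeR) were called in KO hearts. Nrf1 did not pass in either (-0.20 ± 0.08 and -0.17 ± 0.08), and Myc rose in both (0.58 ± 0.14 and 0.54 ± 0.13).

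Beside 2 related lists, the 78 genes lay in between. Of 36 nuclear-encoded complex I subunits, 15 fell in Ctrl and 33 in KO hearts, with medians of -0.16 and -0.34. Of 94 cytosolic ribosomal protein genes tested, 3 fell and 4 rose in Ctrl hearts and 5 fell and 8 rose in KO hearts, with medians of 0.033 and 0.053. These shares (3.2%, 4.3%, 5.3% and 8.5%) were below those over all genes (9.6%, 10.4%, 16.5% and 17.8%). The 13 mitochondrially encoded proteins, which the mitoribosome translates, had medians of -0.29 and -0.34, and 5 and 10 of them fell. Poly(A) selection does not capture mitochondrial transcripts evenly, so their levels depend on the library preparation.

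**Figure D5:**
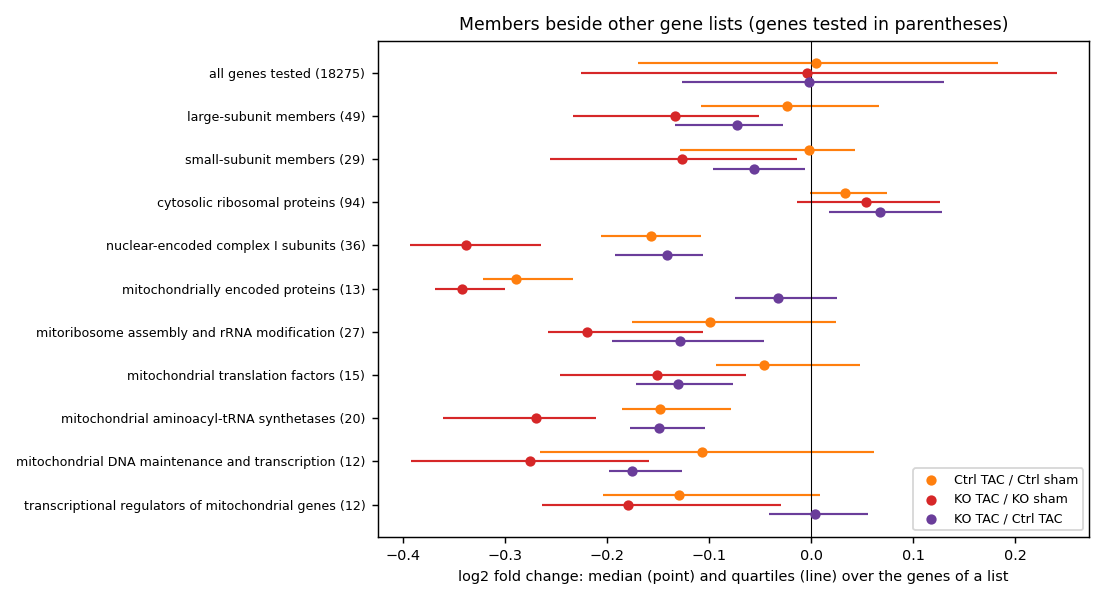
Median log2 fold change (points) and quartiles (lines) over all genes tested, over the large- and small-subunit genes and over 8 other lists, for TAC in Ctrl hearts, TAC in KO hearts and KO TAC against Ctrl TAC. The mitoribosomal genes have a median of -0.13 in KO hearts, between the cytosolic ribosomal proteins at 0.053 and the complex I subunits at -0.34.

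The summed markers of some cell types in the tissue moved with the groups. The 9 cardiomyocyte markers summed to 57700 to 66650 CPM in Ctrl sham, 59080 to 64460 in KO sham, 52840 to 57420 in Ctrl TAC and 45810 to 48590 CPM in KO TAC hearts, so that all KO TAC libraries were below all others. Of these 9 markers, 4 fell and 1 rose in Ctrl hearts and 5 fell in KO hearts, and Myh6 and Ryr2 were lower in KO TAC than in Ctrl TAC hearts. The 8 fibroblast markers summed to 579 to 706 CPM in Ctrl sham, 610.0 to 645 in KO sham, 1123 to 1594 in Ctrl TAC and 1828 to 1995 CPM in KO TAC hearts, with all 8 called higher in KO hearts. Postn, an extracellular matrix gene of activated fibroblasts, was at 2.56 ± 0.19 and 3.88 ± 0.20 on the log2 scale. The 7 macrophage markers summed to 126 to 171 CPM in sham hearts and to 177 to 237 CPM in TAC hearts. In KO hearts 6 of them were called higher and 1 lay below 0, and 1 was called lower in KO TAC than in Ctrl TAC hearts. Endothelial sums averaged 585.5 CPM in Ctrl sham, 606.7 in KO sham, 607.2 in Ctrl TAC and 592.7 in KO TAC hearts, with 0 markers called. In the same order, smooth muscle sums averaged 261, 247.5, 211.8 and 217.5 CPM and red blood cell sums 1103, 1086, 870.1 and 1171 CPM. Of the 5 smooth muscle markers, 1 was called higher and 1 lower in Ctrl hearts, and 2 higher and 1 lower in KO hearts. The smooth muscle sum thus gives no direction shared by its markers. Atrial sums, again in that order of groups, averaged 131.8, 147.9, 1028 and 2323 CPM. Only 2 of the 4 atrial markers passed the expression filter, with log2 fold changes of 0.47 and 2.98 in Ctrl and 0.36 and 3.99 in KO hearts. The list holds Nppa (Anp), which the paper uses as a marker of hypertrophy, so its sum does not measure atrial tissue alone. No defining marker of these lists was at 0 in every library. Transcripts of the mitochondrial genome made up 26.8% to 28.8% of the counts in sham libraries and 21.9% to 27.0% in TAC libraries. The part of these shifts in the fall of the mitoribosomal genes was not tested.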

How the data were processed

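Poly(A) RNA of 16 mouse hearts, 4 per group, was sequenced. The authors deposited these data as raw counts, 1 row per Ensembl identifier and 1 column per animal, without normalization. The submitters' processing notes name cutadapt 2.3, FastQC, HISAT2 2.1.0 and edgeR 3.26.1 and build GRCm38; the counting program, annotation and use of strand are not given in the sources used here. Symbols and exons came from GENCODE M21 and covered 99.5% of identifiers. Reads shared with near-identical copies (Mrpl23-ps1, Mrpl48-ps, Mrps36-ps1 and related pseudogenes) are uncertain. Replicate numbers follow sample order and mark no pairs, and no batch is labelled.

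In edgeR 4.0.16 (R 4.3.3), genes passed filterByExpr (18275), totals were scaled by TMM, and 1 quasi-likelihood model with a mean per group (robust) was fitted to all 16 libraries and checked on simulated data. P-values were adjusted over all genes (Benjamini-Hochberg), and an adjusted p under 0.05 was a call. P-values set a difference between group means against the spread between these animals, estimated from all 16 libraries with information shared over genes. No library pair was alike within sampling noise.

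The genes and lists were chosen with earlier results of these data known, so lists are described by counts and medians without tests. Genes named are Mrpl12 and Mrps18a, those with the largest rises and falls per subunit and contrast, those called between genotypes, the highest and lowest per kb, and some of known role, with the largest calls of each list. Subunits in structures and origins were assigned from general knowledge. Alternatives were DESeq2 1.42.0, its size factors in edgeR, other filters, removal of mitochondrially encoded genes, animal-number terms, fits to 8 libraries, a threshold of 0.01 and omission of each library. Omitting Ctrl TAC 2 with KO TAC 4 was added after seeing the data. Protein sequences were not used here.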

Additional observations from a re-analysis of the deposited data

Results flagged for a closer look

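Dixon's test was applied to 208 groups of 4 libraries (each named gene in each group) and marked 11, where chance marks about 1 in 20. In each, 1 library lay far from the other 3. In Ctrl sham hearts these were Mrpl11 in Ctrl sham 3 (30.5 CPM, others 31.15 to 31.21), Mrpl9 in Ctrl sham 4 (75.6, others 68.2 to 69.2), Mrps15 in Ctrl sham 3 (34.8, others 38.9 to 39.7) and Mrps35 in Ctrl sham 1 (59.3, others 52.3 to 53.2). In KO sham hearts they were Mrpl13 in KO sham 3 (48.1 CPM, others 43.3 to 43.7), Mrpl42 in KO sham 3 (199.6, others 182 to 184), Mrpl53 in KO sham 4 (31.7, others 36.5 to 37.2), Mrps17 in KO sham 4 (29.4, others 32.2 to 32.5) and Mrps34 in KO sham 1 (59.4, others 52.3 to 52.5). In Ctrl TAC hearts they were Mrpl33 in Ctrl TAC 2 (44.2 CPM, others 55.8 to 56.9) and Mrpl41 in Ctrl TAC 2 (37.0, others 34.9 to 35.2). No KO TAC library was marked. Without the library in question, Mrps35 and Mrps34 stayed called in both TAC comparisons and Mrpl42 and Mrpl53 in KO hearts, while Mrps15 became called lower in Ctrl hearts and Mrps17 in KO hearts.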

How the results depend on the processing

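Every log2 fold change of a called gene that the text names kept its sign under all alternatives run. In Ctrl TAC against Ctrl sham, the 16 calls became 9 with a model term for animal numbers that start with 25 (6 higher and 3 lower, in place of 5 and 11). In KO TAC against KO sham, the 41 calls became 26 with the numbers starting with 33 as a term (5 higher and 21 lower). In KO TAC against Ctrl TAC, the 4 calls became 11 with DESeq2 and 0 without a low-count filter, with the 25 series as a term, with only the 8 libraries compared, at an adjusted p under 0.01, and without Ctrl TAC 2 and KO TAC 4. Omitting 1 library at a time gave 12 to 18, 35 to 43 and 0 to 6 calls in these comparisons, and 0 for sham hearts and the interaction. Omission of Ctrl TAC 2, Ctrl TAC 3, KO TAC 1 or KO TAC 3 left 0 of the 4. The causes were not tested. The difference between the subunits' medians, large minus small, stayed within -0.023 and -0.0019 over the comparisons with the subunits as in structures, with DESeq2's size factors and with mitochondrially encoded genes removed, the alternatives run for it. The SD of that difference between libraries of a group was 0.0236, and none of these values exceeded it in size. No paired analysis was possible because the replicate numbers are an order of samples. With 4 animals per group, the median SE over the 78 genes was 0.059 on the log2 scale between 2 groups and 0.083 for the interaction. A difference above its SE could still miss the adjusted threshold, as that of Mrpl3 did in KO hearts (adjusted p = 0.114, edgeR). A gene that was not called is therefore not shown to be unchanged.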
